A study of Mus musculus with 9 samples.

Results

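PPARγ binding was described at 5 genes of glucose uptake and insulin signalling in murine interscapular brown adipose tissue (iBAT), namely *Slc2a4*, *Slc2a1*, *Hk2*, *Insr* and *Irs1*. Members were all ChIP-sequencing peaks of the deposited count table whose midpoint lay in a window around each gene, on mm10 (GRCm38), at chr11:69930000-69960000 for *Slc2a4*, chr4:119090000-119160000 for *Slc2a1*, chr6:82710000-82800000 for *Hk2*, chr8:3120000-3310000 for *Insr* and chr1:82200000-82330000 for *Irs1*. The windows held 52 of the 66066 peaks in the table: 4 at *Slc2a4*, 4 at *Slc2a1*, 8 at *Hk2*, 20 at *Insr* and 16 at *Irs1*. The windows were set by position and not by the counts.

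Tissue came from male C57BL/6J mice of 10 weeks of age, fed chow and kept in mild cold under a light:dark cycle of 12 h each, in which *Zeitgeber* time (ZT) 0 is the onset of light. No mouse carried a genetic change or received a treatment, and time of day was the only labelled difference between the groups. There were 8 time points in 3-h steps from ZT0 to ZT21, of which ZT12 was the onset of darkness. Each time point was 1 library, made according to the protocol with a PPARγ antibody from pooled tissue of 8 mice, so that no time point had a replicate check and the spread between mice was not measured. Pool and library changed along with time of day and cannot be told apart from it. Because whole tissue was used, fewer PPARγ-bound nuclei and less binding per nucleus cannot be told apart.

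The nuclear receptor PPARγ pairs with RXR on DNA, typically at DR1 elements, direct repeats of a hexamer with a single base between them, and it is required for adipocyte differentiation and insulin sensitivity. Glucose enters the adipocyte through GLUT1, encoded by *Slc2a1* and present at the cell surface in the basal state, and through GLUT4, encoded by *Slc2a4* and moved to the surface when insulin acts. Hexokinase 2 then phosphorylates glucose and so traps it in the cell, while the insulin receptor (*Insr*) and its adaptor IRS1 pass the insulin signal to PI3-kinase and AKT.

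Library totals over all peaks ran from 29572225 to 34264812 reads, of which 41942 to 53165 fell in the 52 member peaks, or 0.142% to 0.155%. Single counts in member peaks ran from 38 to 12095. Values below are normalized counts, that is, reads per peak scaled by edgeR's TMM factors to the mean effective library size, and 95% Wilson intervals cover counting error only. The exact 95% intervals of read ratios below also cover counting error only. Spread beyond counting error, fitted by edgeR about the 24-h cosine (below) as a common dispersion of 0.0116, is in neither. Where 8 values are given for a peak, they are those of the 8 time points in order. The libraries also differed in how their reads were spread over peaks: the strongest 10% of all peaks took 48.1% of the reads at ZT6 and 44.2% at ZT15, and the median log2 deviation of those strong peaks from their own mean was 0.10 at ZT6, -0.09 at ZT15 and -0.08 at ZT18. In the tissue check, the brown adipocyte genes *Ucp1*, *Cidea*, *Dio2*, *Adipoq* and *Fabp4* each had a peak stronger than 99% of all peaks, whereas no peak lay nearest to *Prdm16*. Of 7 genes of other cell types, *Ckm* and *Adgre1* had no peak, *Alb*, *Acta1* and *Ptprc* had 1 peak each, at the 75.5th, 68.5th and 5.45th percentile of strength, and the endothelial genes *Cdh5* and *Pecam1* had 9 and 5 peaks, the strongest at the 74.1st and 92.3rd percentile. The part of these other cell types in the results was not tested.

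Sequence under the peaks was searched for AGGTCANAGGTCA, the DR1 consensus, on both strands of GRCm38 (RefSeq). In the 300 bases at the centre of the peak, 5 of the 52 members (9.62%) held a DR1 with at most 2 mismatches in the 12 fixed bases, beside 9.68% of all peaks, and 3 members (5.77%) held one with at most 1 mismatch, beside 2.05% of all peaks. None of the 52 central windows held an exact TTGCGCAA (C/EBP), found in 0.207% of all peaks, an exact TCCCNNGGGA (EBF), found in 2.16%, or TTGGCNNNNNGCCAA (NFI) with at most 1 mismatch, found in 2.13%. In whole member peaks, the 6 DR1 matches with at most 1 mismatch, and the match in the strongest *Slc2a4* peak, are shown in capitals to give the letters under the peaks described below, with 20 bases on each side, read on the strand of the match. They are from the first intron of *Insr* (chr8:3275479-3275491, reverse strand, no mismatch, and chr8:3275641-3275653, reverse strand, G10C), the first intron of *Irs1* (chr1:82247807-82247819, forward strand, T4C; chr1:82247666-82247678, reverse strand, C5G; and chr1:82279818-82279830, reverse strand, C12T), a site past the 3' end of *Slc2a1* (chr4:119137463-119137475, reverse strand, A1G) and the start-site peak of *Slc2a4* (chr11:69946937-69946949, reverse strand, T11G and C12G), with substitutions counted from 1 at the 5′ end of the element and the consensus base first.
Insr intron 1, exact: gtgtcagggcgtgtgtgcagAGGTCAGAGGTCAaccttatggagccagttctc
Insr intron 1, second: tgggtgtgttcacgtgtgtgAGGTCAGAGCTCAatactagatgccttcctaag
Irs1 intron 1, 43.7 kb: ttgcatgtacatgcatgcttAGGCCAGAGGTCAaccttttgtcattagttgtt
Irs1 intron 1, same peak: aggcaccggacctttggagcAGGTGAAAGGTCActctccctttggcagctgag
Irs1 intron 1, 11.3 kb: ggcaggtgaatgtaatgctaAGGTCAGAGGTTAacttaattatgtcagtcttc
Slc2a1 28.7 kb: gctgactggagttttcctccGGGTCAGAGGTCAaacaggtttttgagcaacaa
Slc2a4 start-site peak: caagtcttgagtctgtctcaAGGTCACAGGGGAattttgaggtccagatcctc

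The exact element lay in an *Insr* intron 1 peak of 2342 bases, and 1.05% of all peaks of like width (within 20%) held an exact match. The share of peaks of like width with a match as good was 66.2% for the *Slc2a4* start-site peak. For the peaks with a best match of 1 mismatch it was 3.57% at *Slc2a1*, and 5.48% (43.7 kb) and 4.11% (11.3 kb) at *Irs1*. *Hk2*, which had the most cosine calls of the 5 genes (below), held 1 DR1 with at most 2 mismatches in its 8 peaks, in intron 2 (chr6:82750734-82750746, reverse strand, G3A and T4A), and that was in a peak called by neither test described below. A match as good was held by 43.2% of peaks of like width. A match is a description of the letters and not a measured binding site.

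The genes differed in where and how densely PPARγ was bound. Summed over the peaks of a window, the mean over the 8 libraries was 9778 normalized counts at *Slc2a4* (13918 bases of peak), 681 at *Slc2a1* (2431 bases), 15464 at *Hk2* (30253 bases), 10754 at *Insr* (27676 bases) and 10671 at *Irs1* (29551 bases). Per kilobase of peak, pooled over each window, *Slc2a4* was densest at 703 normalized counts per kb. *Hk2* followed at 511, *Insr* at 389, *Irs1* at 361 and *Slc2a1* at 280. These pooled values give wide peaks more weight and have no like value over all peaks here. Of the *Slc2a4* sum, 4478 came from a peak over a start site of the neighbouring gene *Ybx2* and 351 from a peak before *Ybx2*. The *Slc2a4* start-site peak by itself had 833 normalized counts per kb. Over single peaks, the median was 283 per kb for the members and 269.7 per kb for all peaks. Single *Slc2a1* peaks ran from 129 to 362 per kb and single *Irs1* peaks from 104 to 566. The pooled order of these genes therefore does not hold peak by peak. The strongest peak held 68.8% of the summed count at *Hk2*, 56.7% at *Irs1*, 49.3% at *Slc2a1* and 47.9% at *Slc2a4*, and 20.4% at *Insr*, where 15 of 20 peak centres were intronic.

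**Figure D1:**
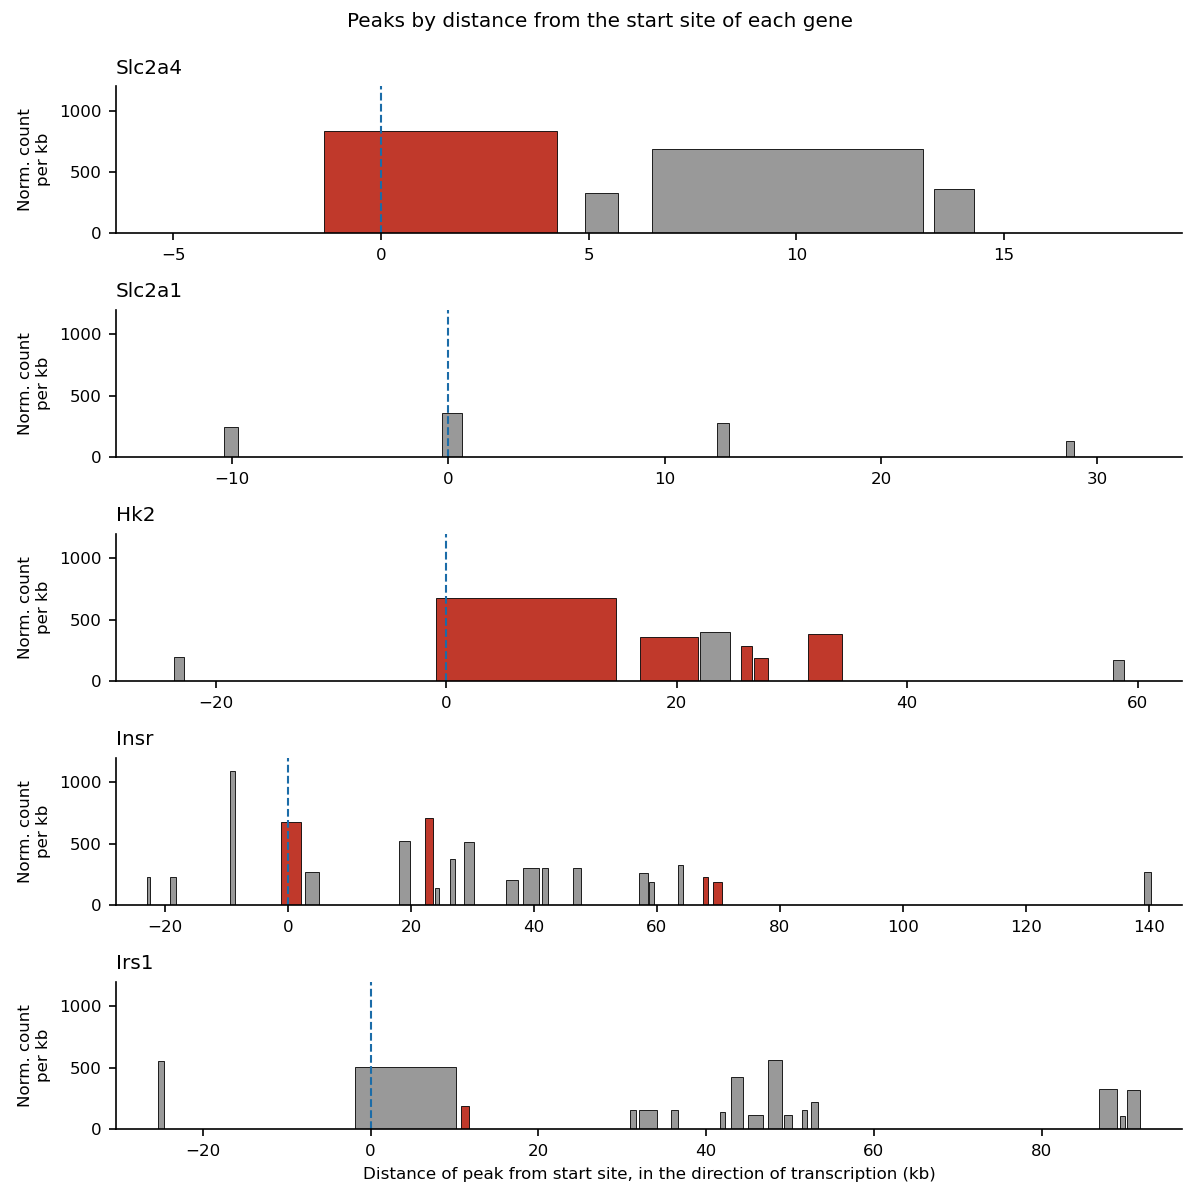
Member peaks by distance from the start site of their gene, counted in the direction of transcription (kb, horizontal axis), with mean normalized count per kb of peak as the height. Each rectangle is 1 peak drawn to its width, red where at least 1 of the tests for daily rhythm called it, and the dashed line is the start site. *Hk2* and *Irs1* carry peaks of 15633 and 11995 bases over their start sites, while *Insr* carries many narrow peaks along its introns.

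Rhythm was tested with JTK-cycle (exact p, periods of 21 and 24 h, adjusted within each peak over 15 combinations of period and phase, called under 0.05) and with a 24-h cosine in edgeR's quasi-likelihood test (Benjamini-Hochberg adjusted over all peaks, called under 0.05). JTK-cycle called 10 of the 52 members (19.2%), beside a background of 11.6% of all peaks, and the cosine called 6 (11.5%), beside 13.4%. The JTK-cycle p was not adjusted over peaks, and after Benjamini-Hochberg adjustment 0 of 66066 peaks were under 0.05 (smallest 0.0968). The cosine share of the members was near the background, and 5 of the 6 cosine calls were at *Hk2*. The median highest-to-lowest ratio of a peak was 1.42 over the members and 1.52 over all peaks, and the median fitted log2 peak-to-trough was 0.33 over the members and 0.35 over all peaks. The lowest value was at ZT18 in 16 of 52 members (30.8%), beside 10.3% of all peaks (5 peaks each at *Hk2* and *Irs1*, 3 at *Insr*, 2 at *Slc2a4* and 1 at *Slc2a1*), and the highest at ZT6 in 13 (25.0%), beside 17.4%. Members were stronger than all peaks, with a median mean of 328 beside 224 normalized counts. Strong peaks as a whole were low at ZT15 and ZT18 and high at ZT6 (above), so all peaks are not a background of like strength. The part of that trend in these shares was not tested.

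**Figure D2:**
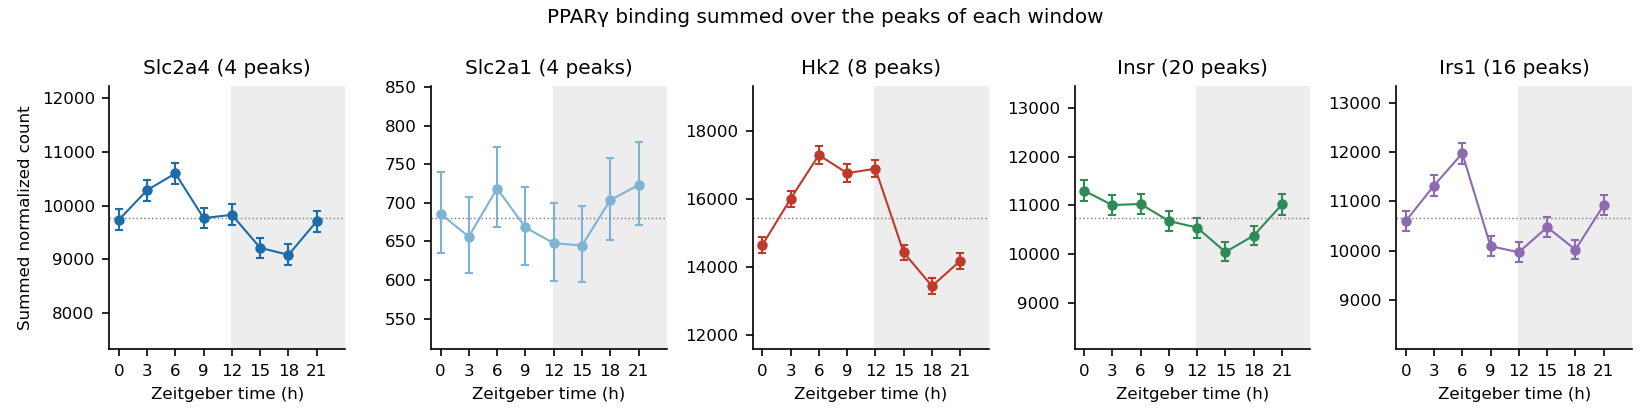
Summed normalized count of the peaks in each window (vertical axis, each panel drawn from 25% below to 25% above the mean, not from 0) against *Zeitgeber* time in h, with 95% Wilson intervals for counting error as bars, the mean dotted and the dark phase shaded. *Hk2* runs from 17300.4 at ZT6 to 13450.5 at ZT18, whereas the intervals of *Slc2a1* overlap at its highest and lowest times.

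*Slc2a4* bound PPARγ strongly and varied little over the day. Its strongest peak, also the nearest to the start site, covered the start site and had its centre in intron 1 (chr11:69943942-69949565, 5624 bases, 99.5th percentile of strength). In 3-h steps its normalized counts were 4828, 4829, 5207 and 4663 from ZT0 to ZT9 and 4650.2, 4197, 4466 and 4657 from ZT12 to ZT21. The value was high at ZT6 and low at ZT15, a ratio of 1.24, and the other 6 libraries lay between 4466 and 4829. JTK-cycle called this peak (exact adjusted p = 0.00595, phase ZT4.5), whereas the cosine did not (log2 peak-to-trough 0.21 ± 0.08 SE, edgeR adjusted p = 0.16). The JTK-cycle call was lost with DESeq2 size factors (exact adjusted p = 0.212), with library totals (0.915) and with cyclic loess, which removes trends with peak strength (0.0826). It was also lost when peaks with a mean raw count under 100 were left out, and was kept when any single library was left out.

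The second broad peak of the *Slc2a4* window (chr11:69935153-69941669, 6517 bases) had its centre in intron 3 of the neighbouring gene *Ybx2* and covered a *Ybx2* start site, so that its assignment to *Slc2a4* rests on the window alone. Its normalized count ran from 4049 at ZT18 to 4775 at ZT3 and it was called by neither test. Reads in the *Slc2a4* start-site peak relative to this neighbour in the same library, a ratio that no scaling of libraries can move, were between 0.951 (exact 95% interval 0.912-0.992) at ZT15 and 1.12 (1.07-1.17) at ZT0. The weakest *Slc2a4* peak, over the 3' UTR in exon 11, ran from 223 at ZT18 to 324 at ZT3, and the peak before *Ybx2* from 319 at ZT21 to 373 at ZT0, without a call.

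*Slc2a1* had the least binding per kb of the 5 genes when the peaks of each window were pooled, and none of its 4 peaks was called by either test. The strongest lay over exon 1 and the start site (chr4:119108465-119109392, 928 bases). Normalized counts of this peak were 339.8, 319, 339.8 and 346 from ZT0 to ZT9 and 345, 315, 307 and 372 from ZT12 to ZT21. Highest and lowest differed by a ratio of 1.21 and their Wilson intervals, 335-412 at ZT21 and 274-344 at ZT18, overlapped. Such an overlap does not settle whether the values differ. They were the extremes of the series, from 1 library each, and their difference was not tested. The cosine gave a log2 peak-to-trough of 0.05 ± 0.14 SE (edgeR adjusted p = 0.96). The peak 10.0 kb before the start site ran from 116 to 195 and the intron 2 peak from 124 to 187 normalized counts. The former was highest at ZT6 and lowest at ZT15, and the latter highest at ZT18 and lowest at ZT12. The peak past the end of the gene, which held the DR1 with A1G shown above, was the weakest member at 39.0 to 54.1 normalized counts. Both this peak and the intron 2 peak lay nearer to a start site of *Gm12867* than to that of *Slc2a1*.

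*Hk2* held most of the cosine calls. Of its 8 peaks, the cosine called 5 and JTK-cycle called 4 of those 5, all highest in the light phase or at its end and all lowest at ZT18. The 3 other peaks, at 23.3 kb and 58.4 kb after the start site and 23.2 kb before it, were called by neither test. Summed over the window, *Hk2* binding was 14652, 16014, 17300.4 and 16771 from ZT0 to ZT9 and 16898, 14438, 13450.5 and 14190.2 from ZT12 to ZT21. In order, ZT6, ZT12 and ZT9 were highest with each overlapping the next in its Wilson interval, ZT3 and ZT0 followed, each apart from the one before it, ZT0, ZT15 and ZT21 overlapped as neighbours, and ZT18 was lowest and apart.

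The main *Hk2* peak covered 15633 bases from before the start site into intron 1 (chr6:82759707-82775339) and was both the strongest and the nearest to the start site. Its normalized counts were 9943, 10963, 11744 and 11388 from ZT0 to ZT9 and 12065, 9867, 9356 and 9833 from ZT12 to ZT21. Values from ZT3 to ZT12 were all above those from ZT15 to ZT0. The fitted log2 peak-to-trough was 0.33 ± 0.07 SE with a maximum at 7.95 h (edgeR adjusted p = 0.0223), and JTK-cycle did not call it (exact adjusted p = 0.0826). With a cyclic loess offset the same component was -0.04, and strong peaks as a whole were also high at ZT6 and low at ZT15 and ZT18 (above); the part of that trend in the result was not tested.

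The intron 2 peak 19.3 kb into the gene (chr6:82752634-82757673, 5040 bases) gave the smallest adjusted p of the members. In 3-h steps its normalized counts were 1778, 2018, 2142 and 2089 from ZT0 to ZT9 and 1703, 1626, 1455 and 1581 from ZT12 to ZT21. It was high from ZT3 to ZT9 and low from ZT15 to ZT21, with a fitted log2 peak-to-trough of 0.53 ± 0.09 SE and a maximum at 6.02 h (edgeR adjusted p = 0.00471). It remained 0.37 under cyclic loess, 0.49 without the ZT18 library and 0.53 without the ZT6 library, and the cosine called it in each of those 3 fits.

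Right beside it, the other intron 2 peak (chr6:82749808-82752412, 2605 bases) was flat in comparison, and is the *Hk2* peak with the DR1 match named above. Normalized counts of this peak were 1002, 992, 999 and 1098 from ZT0 to ZT9 and 1096, 1129, 1006 and 954 from ZT12 to ZT21 (edgeR adjusted p = 0.31). Reads in the nearer peak relative to this one in the same library were 1.77 (exact 95% interval 1.64-1.92) at ZT0 with 2.03 (1.89-2.19) at ZT3 and 2.14 (1.99-2.31) at ZT6. They were 1.90 (1.77-2.05) at ZT9 and 1.55 (1.44-1.68) at ZT12, and in the dark phase 1.44 (1.34-1.55) at ZT15, then 1.45 (1.33-1.57) and last 1.66 (1.53-1.80) at ZT21. The ratios from ZT3 to ZT9 did not overlap with those from ZT12 to ZT18 in these intervals, which cover counting error only. This pair was chosen after its values were seen and the difference between the peaks was not tested further.

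The remaining called *Hk2* peaks lay deeper in the gene. The intron 3 peak at chr6:82746564-82747705 had the largest swing of them, with normalized counts of 176, 249.7, 303 and 258 from ZT0 to ZT9 and 231, 201, 147 and 172 from ZT12 to ZT21. Its log2 peak-to-trough was 0.89 ± 0.16 SE with a maximum at 7.27 h (edgeR adjusted p = 0.0085), and JTK-cycle called it as well (exact adjusted p = 0.00595). Its highest value was 2.06 times its lowest, and its cosine component was 0.94 on the log2 scale under cyclic loess. The 300 bases at its centre (chr6:82746985-82747284, forward strand) are shown because this peak varied the most at *Hk2*. They held none of the 4 searched motifs, so no base is in capitals.
Hk2 intron 3 centre: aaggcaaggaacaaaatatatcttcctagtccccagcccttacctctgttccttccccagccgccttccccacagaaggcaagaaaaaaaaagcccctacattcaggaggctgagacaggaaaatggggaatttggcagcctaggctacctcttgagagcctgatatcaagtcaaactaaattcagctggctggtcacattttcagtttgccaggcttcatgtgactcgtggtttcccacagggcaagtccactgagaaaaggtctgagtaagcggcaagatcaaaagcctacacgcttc

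The other intron 3 peak (chr6:82747925-82748912) had normalized counts of 274, 297, 332 and 350.4 from ZT0 to ZT9 and 288, 276, 208 and 249 from ZT12 to ZT21. Its values at ZT6 and ZT9 overlapped in Wilson interval (299-369 and 316-389), and its log2 peak-to-trough was 0.57 ± 0.15 SE with a maximum at 7.22 h, close to the 7.27 h of its neighbour (edgeR adjusted p = 0.0455) and a JTK-cycle call (exact adjusted p = 0.026). The intron 7 peak (chr6:82740075-82743048) had normalized counts of 1093, 1173, 1436 and 1225 from ZT0 to ZT9 and 1192, 995, 883 and 1081 from ZT12 to ZT21. It was highest at ZT6 and lowest at ZT18, with a log2 peak-to-trough of 0.50 ± 0.11 SE (edgeR adjusted p = 0.0231) and a JTK-cycle call (exact adjusted p = 0.026). The cosine calls at *Hk2* leaned on the ZT18 library: without it 1 of the 5 was left (the intron 2 peak), and without ZT6 2 were left (that peak and the intron 3 peak at chr6:82746564-82747705). The call of the other intron 3 peak was kept only when ZT3 was the library left out, and that of the intron 7 peak was also lost without ZT15. With library totals the cosine called 2 of these 5 peaks (the intron 2 peak and the intron 3 peak at chr6:82746564-82747705), and with cyclic loess 3 (those and the other intron 3 peak). The JTK-cycle call was lost with library totals for the other intron 3 peak (exact adjusted p = 0.0826) and with cyclic loess for the intron 2 peak (0.0826). By JTK-cycle, the intron 7 peak lost its call without ZT6, ZT9 or ZT18 (exact adjusted p = 0.161 in each).

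**Figure D3:**
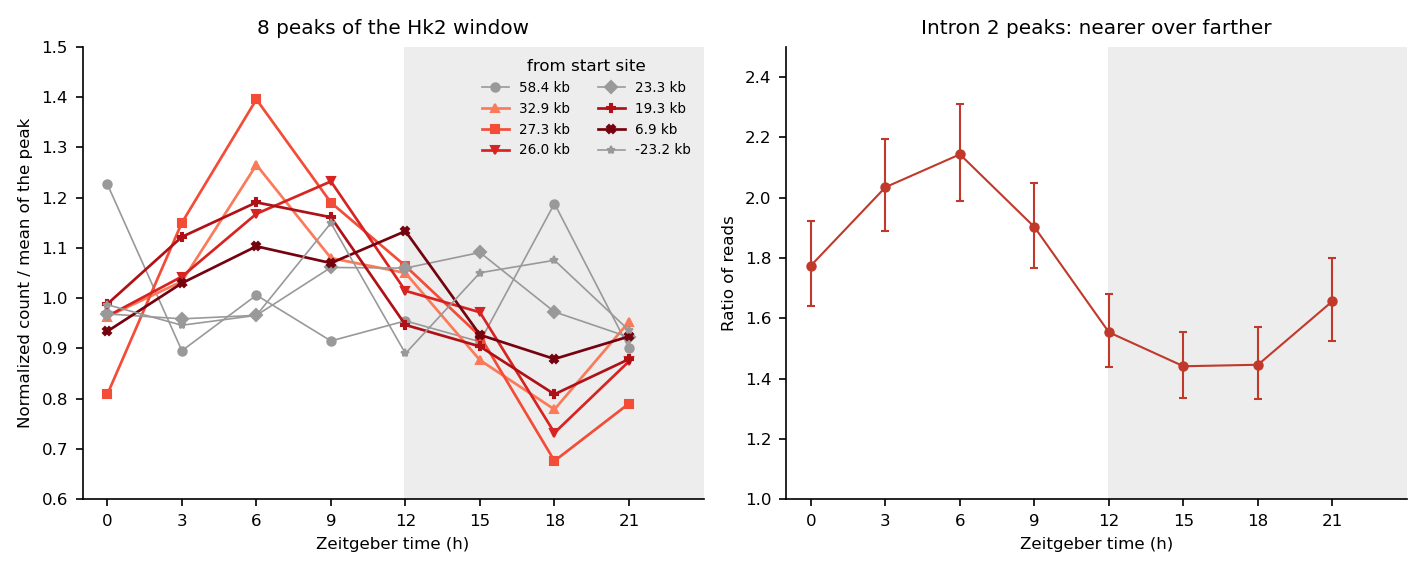
Left, normalized count of each of the 8 *Hk2* peaks divided by its own mean against *Zeitgeber* time in h, in red where the cosine called the peak and grey otherwise, with distances from the start site in the key. Right, ratio of reads in the neighbouring intron 2 peaks (19.3 kb over 23.3 kb) in the same library, with exact 95% intervals for counting error. The axis of this panel starts at 1. The red peaks are above their mean from ZT3 to ZT9 and below it at ZT18, and the ratio goes from 2.14 at ZT6 to 1.44 at ZT15.

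*Insr* carried 20 peaks over its introns and flanks that did not share a time of day. The highest value was at ZT3 in 7 peaks, at ZT0, ZT15 and ZT21 in 3 each, at ZT6 in 2, and at ZT12 and ZT18 in 1 each. The window sum was correspondingly even, from 10049 at ZT15 to 11305 at ZT0, a ratio of 1.12. JTK-cycle called 4 of the 20 peaks and the cosine 1, in each case with maxima in the light phase.

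The strongest *Insr* peak lay over exon 1 and the start site (chr8:3277577-3280805, 3229 bases). Its normalized counts were 2226, 2449.7, 2249 and 2205 from ZT0 to ZT9 and 2208, 1989, 2053 and 2201 from ZT12 to ZT21. It was highest at ZT3 and lowest at ZT15, and JTK-cycle called it (exact adjusted p = 0.026) while the cosine did not (log2 peak-to-trough 0.21 ± 0.08 SE, edgeR adjusted p = 0.22). The JTK-cycle call was lost with library totals and with cyclic loess (exact adjusted p = 0.915 in both) and with DESeq2 size factors (0.0826), and also without ZT0, ZT3, ZT6, ZT15 or ZT18 (0.161 in each).

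The peak with both tests' call was in intron 2, 22.9 kb after the start site (chr8:3255972-3257366, 1395 bases, 709 normalized counts per kb). In 3-h steps its normalized counts were 1101, 1137, 1049 and 926 from ZT0 to ZT9 and 915, 785, 916 and 1088 from ZT12 to ZT21. Values were high from ZT21 to ZT6 and lowest at ZT15, with a log2 peak-to-trough of 0.45 ± 0.10 SE, a maximum at 1.78 h (edgeR adjusted p = 0.0283) and a JTK-cycle exact adjusted p of 0.00595. Under cyclic loess the cosine component was 0.41. The cosine call was lost when the ZT6, ZT9, ZT15 or ZT18 library was left out, with components between 0.36 and 0.45.

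Farther into the gene, 2 weak peaks were called by JTK-cycle only. The intron 3 peak (chr8:3209080-3210437) had normalized counts of 230.0, 363, 295 and 277 from ZT0 to ZT9 and 259.7, 189, 212 and 265 from ZT12 to ZT21 (exact adjusted p = 0.026; edgeR adjusted p = 0.0622). The nearby intron 2 peak (chr8:3211242-3212166) had normalized counts of 191, 207, 287 and 263 from ZT0 to ZT9 and 202, 192, 186 and 193 from ZT12 to ZT21 (exact adjusted p = 0.00595; edgeR adjusted p = 0.0833). The former was highest at ZT3 and the latter stood out at ZT6 and ZT9, with the other 6 libraries between 186 and 207. The JTK-cycle call of the former was lost without ZT9, ZT15, ZT18 or ZT21 (exact adjusted p = 0.161 in each), and that of the latter with library totals (0.0826).

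Other *Insr* peaks were highest in the dark phase. The intron 2 peak at chr8:3238784-3241446 had normalized counts of 831, 729.8, 714 and 694 from ZT0 to ZT9 and 830.5, 905, 847 and 862 from ZT12 to ZT21, so that its lowest libraries were ZT3 to ZT9. It was not called (log2 peak-to-trough 0.34 ± 0.11 SE, maximum at 18.0 h, edgeR adjusted p = 0.0956). Reads in the intron 2 peak at chr8:3211242-3212166 relative to this one in the same library were 0.403 (exact 95% interval 0.351-0.462) at ZT6, 0.379 (0.328-0.438) at ZT9 and between 0.212 and 0.283 at the other 6 times. The widest ratio of all members, 2.32, was in a weak peak 22.7 kb before the start site (chr8:3302058-3302604), with 77.7 at ZT6 and 180.3 at ZT15, which neither test called (edgeR adjusted p = 0.17). These 2 peaks and the read ratio were chosen after their values were seen.

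The *Insr* intron 1 peak with the exact DR1 (chr8:3274581-3276922) was among the steadier ones. Normalized counts of this peak were 593, 693, 611 and 608 from ZT0 to ZT9 and 613, 625, 589 and 715 from ZT12 to ZT21, and no test called it (log2 peak-to-trough 0.12 ± 0.12 SE, edgeR adjusted p = 0.75). The densest of all member peaks, at 1093 normalized counts per kb (98.9th percentile of all peaks), lay 9.1 kb before the *Insr* start site (chr8:3288322-3289109). It ran from 712 at ZT3 to 1004 at ZT12 without a call (edgeR adjusted p = 0.28).

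At *Irs1* a broad peak over the start site carried 56.7% of the summed count and was called by neither test. This peak spanned 11995 bases over exon 1, which holds the coding sequence, and the start site (chr1:82281246-82293240). Its normalized counts were 6162, 6474, 6893 and 5604 from ZT0 to ZT9 and 5726, 5805, 5507 and 6239 from ZT12 to ZT21. The values of ZT21 to ZT6 were all above those of ZT9 to ZT18. The log2 peak-to-trough was 0.23 ± 0.08 SE (edgeR adjusted p = 0.15; JTK-cycle exact adjusted p = 0.915), and 0.0024 under cyclic loess.

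The only call among the 16 *Irs1* peaks was the intron 1 peak 11.3 kb after the start site (chr1:82279672-82280637), which holds the DR1 with C12T shown above. In 3-h steps its normalized counts were 163, 189, 219 and 185 from ZT0 to ZT9 and 178, 172, 155 and 173 from ZT12 to ZT21. JTK-cycle called it (exact adjusted p = 0.026, phase ZT7.5), with ZT6 highest and ZT18 lowest, whereas the cosine did not (log2 peak-to-trough 0.34 ± 0.16 SE, edgeR adjusted p = 0.29). The JTK-cycle call was lost with library totals (exact adjusted p = 0.467) and without ZT6, ZT12, ZT18 or ZT21 (0.161 in each).

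The other 14 *Irs1* peaks had means between 53.9 and 935 normalized counts and ratios of highest to lowest between 1.22 and 1.94. The intron 1 peak with 2 close DR1 matches (chr1:82247088-82248457) ran from 484 at ZT0 to 662 at ZT3 and was not called. Over all 16 peaks, ZT6 was the highest library in 6 and ZT18 the lowest in 5. Of the 16, 4 lay nearer to another gene's start site than to that of *Irs1*, so that their link to *Irs1* rests on the window. Among these, the peak at chr1:82316076-82316784 covered a start site of *Rhbdd1*. The window sum was highest at ZT6, 11974, and apart in its Wilson interval from the next, 11319.6 at ZT3.

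**Figure D4:**
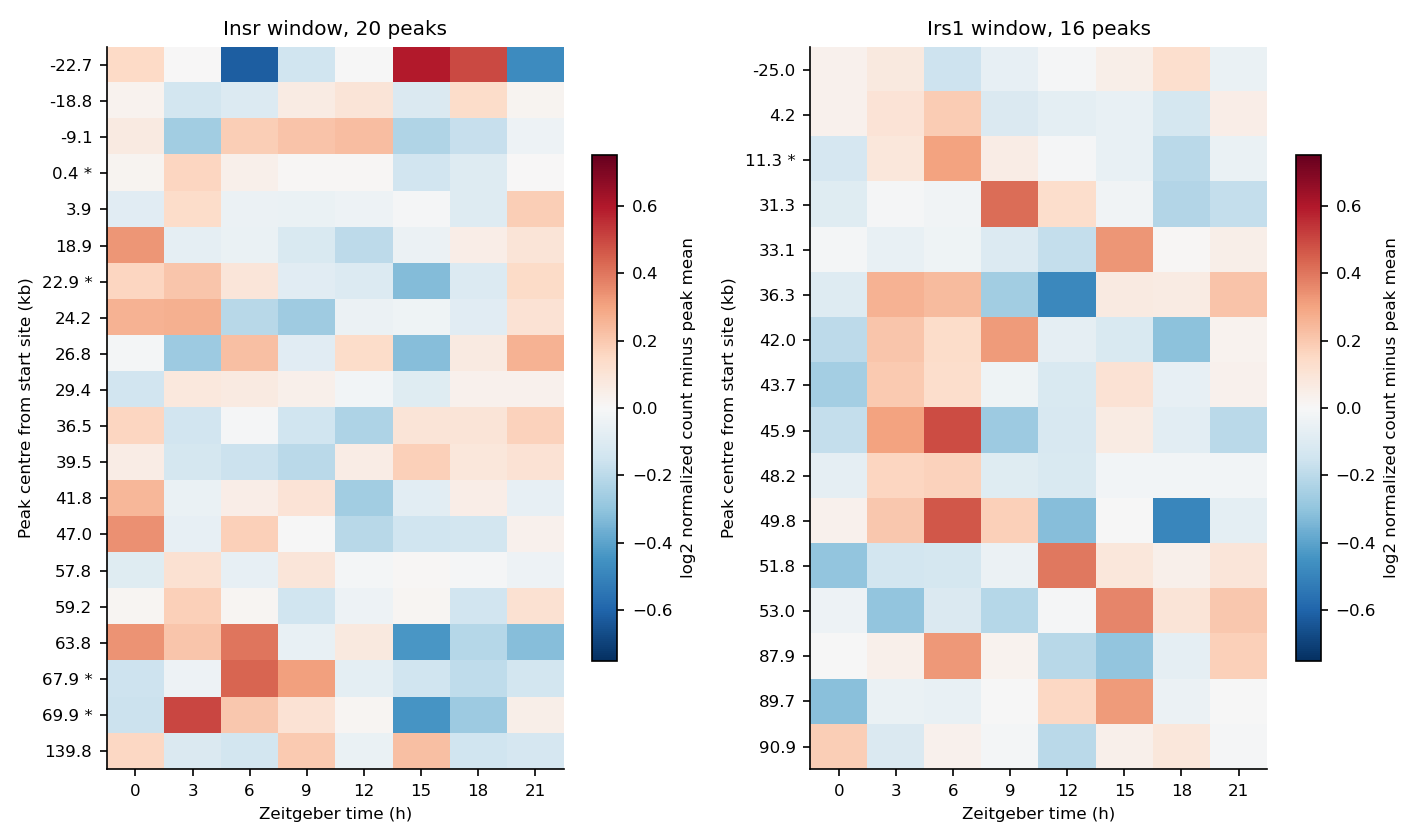
Log2 normalized count minus the mean of the peak (colour) for the 20 *Insr* and 16 *Irs1* peaks (rows, by distance of the centre from the start site in kb) at each *Zeitgeber* time in h (columns). Asterisks mark peaks called by at least 1 test. *Insr* peaks differ in where their red and blue cells fall, for example those at 39.5 kb and 67.9 kb.

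**Figure D5:**
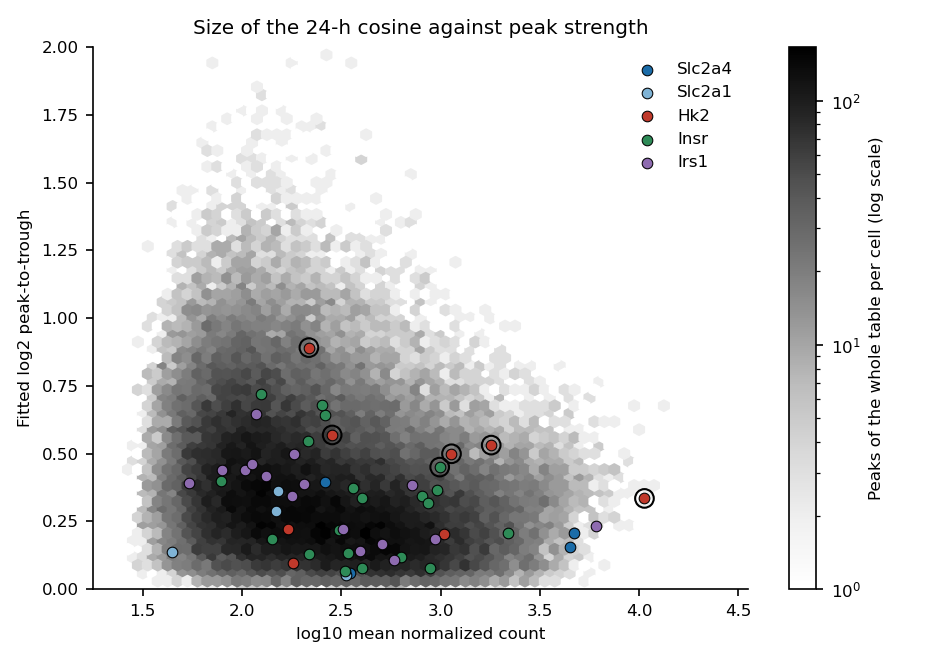
Fitted log2 peak-to-trough of the 24-h cosine against log10 mean normalized count for the peaks of the whole table (grey cells, darker where more peaks fall) and the 52 members (coloured points, ringed where the cosine called them). Of the 6 ringed peaks, 5 are at *Hk2*, and the ringed *Hk2* peak farthest to the right is the strongest member, with a mean of 10645. The vertical axis ends at 2.

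Genes around the 5 in the same pathways were taken from a list of 41 genes, of which 38 had at least 1 nearest peak, 366 peaks in all. The list was fixed with earlier results of these data known. JTK-cycle called 73 of these peaks (19.9%, beside 11.6% of all peaks) and the cosine 72 (19.7%, beside 13.4%), with a median log2 peak-to-trough of 0.40, beside 0.35 for all peaks. How strong these peaks were beside all peaks is not given here, and the difference in shares was not tested. Of the 72, 39 had their fitted maximum from 3 h to before 12 h and 19 from 15 h to before 24 h. The like shares over all called peaks are not given here, so these counts do not show a timing particular to the list. Genes without a nearest peak included *Slc2a3* and *Hk1*. In 19 genes at least 1 peak was called by both tests, a count that has no like value over all genes here. Of the 10 genes with the strongest such peak, 8 follow.

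The strongest was over *Txnip*, whose product restrains glucose uptake, with 13057 normalized counts at ZT6 and 7017 at ZT18 (log2 peak-to-trough 0.75 ± 0.11 SE, edgeR adjusted p = 0.00214). The peak over *Pdk4*, a kinase that inhibits pyruvate dehydrogenase, ran from 6461 at ZT15 to 12352 at ZT6 (0.82 ± 0.09 SE, edgeR adjusted p = 0.000385). Both were highest at ZT6 with their low values in the dark phase. Peaks of *Akt2*, the AKT of insulin-stimulated glucose uptake, and of *Pfkfb3*, which makes the activator of phosphofructokinase, shared that time, at 6103 and 5806, with log2 peak-to-trough values of 0.49 and 0.57.

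The start-site peak of *Mtor*, a kinase of growth signalling downstream of AKT, ran from 1614 at ZT15 to 2299 at ZT6. A peak 57.4 kb before *Foxo1* ran from 956 at ZT15 to 1609.8 at ZT6. *Irs2*, the paralogue of *Irs1*, had a peak 90.1 kb before its start site with 851, 1422, 1794 and 1389 from ZT0 to ZT9 and 1179, 929.8, 809.6 and 1019 from ZT12 to ZT21. Its highest value was 2.22 times its lowest (log2 peak-to-trough 0.97 ± 0.15 SE, edgeR adjusted p = 0.00338). Among the 8 the exception in timing was a peak nearest to *Pik3r1*, the regulatory subunit of PI3-kinase, at 247 kb from its start site, which was highest at ZT0 (2305) and lowest at ZT9 (1244). The 8 were picked by strength, and strong peaks as a whole were high at ZT6 and low at ZT15 and ZT18 (above). The part of that trend in their timing was not tested.

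The patterns of the strongest peak of each gene were compared with the 17480 other peaks of at least 500 mean normalized counts, by the root-mean-square (RMS) difference of log2 values centred on each peak's mean over the 8 libraries. The nearest to the main *Hk2* peak were peaks at *Dgat2* (RMS 0.0204), *Slc25a51* (0.0257) and *Sh3glb2* (0.0258), beside an RMS of 0.129 of the *Hk2* peak about its own mean. For *Slc2a4* they were at *Rnf14* (0.0192), *Fermt2* (0.0201) and *Mtch2* (0.0223), and for *Insr* at *Noct* (0.021), *Mir6995* (0.0246) and *Arrdc3* (0.027). For *Irs1* they were at *Scpep1os* (0.0283), *Acvr1c* (0.0293) and *Ints10* (0.036), and for *Slc2a1* at *Cdk8* (0.0398), *Stard7* (0.0431) and *Hipk3* (0.0437). The RMS about their own mean, which is also the distance to a flat peak, was 0.0845 for the *Slc2a4* peak, 0.084 for *Insr*, 0.105 for *Irs1* and 0.0836 for *Slc2a1*. Of the 17480 peaks, the share within an RMS of 0.1 was 22.5% for *Slc2a4*, 20.5% for *Insr* and 10.1% for *Hk2*. It was 9.46% for *Slc2a1* and 9.38% for *Irs1*. A search over so many peaks returns close ones by itself, so the names are a description only.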

How the data were processed

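PPARγ ChIP-sequencing libraries of 8 time points were used; the input library of ZT12 was not analysed here. According to the methods of the study, the authors mapped reads to mm10 with BWA-MEM 0.7.17, called peaks with MACS2 2.1.2, kept peaks significant in at least 6 libraries and counted reads with HTSeq 1.99.2. The deposited values are raw counts per peak, not normalized by the authors. How duplicate reads were treated is not given in the sources used here, and duplicates would raise counts. All columns of the count table were used.

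Counts were normalized with TMM (edgeR 4.0.16, R 4.3.3). The cosine was fitted with edgeR's quasi-likelihood test on all 66066 peaks with 5 residual degrees of freedom, so departures from the cosine stood in for replicate spread. JTK-cycle was computed in Python 3.11.15 with its exact null distribution. Both were tested on simulated data. Peaks were assigned to the nearest RefSeq start site of GRCm38. Peaks named with all values were each gene's strongest, the nearest to its start site and all called ones, with additions marked as chosen after values were seen. Pathway genes named had a peak called by both tests (at most 10, strongest first; 2 of these are not reported here). Members, gene lists and tests were chosen with earlier results of these data known. Alternatives were library totals, DESeq2 1.42.0 size factors and likelihood ratio test, cyclic loess (limma 3.58.1), filters, thresholds, a single period and leaving out each library.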

Additional observations from a re-analysis of the deposited data

How the results depend on the processing

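The number of member peaks called was within 1.5 times the reported one under library totals, DESeq2 size factors, cyclic loess and both filters, for JTK-cycle (7 to 10, beside 10) and for the cosine (4 to 6, beside 6). The peaks called were not all the same ones: of the 10 JTK-cycle calls 5 were shared under library totals, 7 under cyclic loess and 8 under DESeq2 size factors, and of the 6 cosine calls 3, 4 and 6. Leaving out 1 library gave 6 (without ZT18) to 14 (without ZT3) JTK-cycle calls and 1 (without ZT18) to 10 (without ZT3) cosine calls, with 2 without ZT6 and 3 without ZT15. Without ZT6 and ZT18 together, an alternative added after seeing the data, JTK-cycle called 4 and the cosine 0 at an adjusted p under 0.05, none of them at *Hk2*; 6 libraries remain in that fit, and the cause was not tested. At an unadjusted p under 0.05, also added, the edgeR cosine had 14 (26.9%, beside 31.3% of all peaks). At a threshold of 0.01, which is stricter by construction, JTK-cycle called 5 and the cosine 2 members, 33 and 23 pathway peaks, and 3079 and 2243 of all peaks. For the pathway list, leaving out 1 library gave 30 to 90 cosine calls beside 72 and 61 to 94 JTK-cycle calls beside 73. Over all peaks it gave 3067 to 11203 cosine calls beside 8842 and 7396 to 10802 JTK-cycle calls beside 7686.

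The cosine component, taken along the reported phase, turned sign for 3 named peaks. Under cyclic loess it was -0.048 for the *Slc2a4* start-site peak and -0.041 for the main *Hk2* peak. For the *Slc2a1* start-site peak it was -0.016 with library totals, and leaving out 1 library gave -0.025 (without ZT18) to 0.129 (without ZT3), below 0 also without ZT15. The cause was not tested. Under both cyclic loess and library totals, the intron 2 and first intron 3 peaks of *Hk2* and the intron 2 peak of *Insr* kept their cosine calls. No paired analysis was possible because each time point is 1 library with no replicate number. With 1 library per time point the precision is set by counting error and by departures from the cosine, and the weakest members, under 100 counts, carry the widest intervals.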
